A study of Mus musculus with 12 samples.

Results

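Colon tumours deficient for p53 were compared with colon tumours deficient for miR-34a, the 2 single deletions of the series set against each other. The comparison rested on 6 of the series' 12 RNA-seq libraries, chosen by their labels: 3 from p53 deficient tumours and 3 from miR-34a deficient tumours. It covered 21322 of the 21792 genes in the deposited table, those with a mean value of at least 1 over the 12 libraries. Every value below is a normalized expression value rounded to a whole number by the authors, so it is a relative level and not a read count, and the sequencing depth behind it is unknown.

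The p53 deficient tumours lacked p53 in intestinal epithelial cells (IEC), and the miR-34a deficient tumours lacked miR-34a there. The 6 other libraries were 3 from double deficient tumours, which lacked both, and 3 from wt tumours. All mice had the background strain FvB and all received azoxymethane (AOM), a colon carcinogen, at 10 mg/kg into the peritoneum weekly over 6 weeks, ending 16 weeks after the first dose. The labels place both deletions in intestinal epithelial cells and describe none in the stroma or immune cells of the tumours. The labels name neither the promoter that drove the deletion nor whether the 3 libraries of a group came from separate mice, so each p below measures the spread between these samples only.

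p53 is a transcription factor that DNA damage stabilises. It switches on genes for cell cycle arrest, cell death, DNA repair and metabolism, and its own inhibitor Mdm2. The miR-34a gene is one of its targets, and the mature microRNA pairs through its seed with sites in the 3′ untranslated regions of mRNAs and lowers their level or their translation. A p53 deficient tumour therefore lacks the inducer with the Mir34a gene in place, and a miR-34a deficient tumour lacks this 1 target with p53 in place.

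The sequences that tie the 2 deleted genes to the results are given first. Mature miR-34a (RefSeq, GRCm38.p6, chr4:150068473-150068494, plus strand) has its seed, bases 2 to 8, in capitals, as has mmu-miR-34b-5p of the same family (chr9:51103610-51103632, minus strand), whose seed is identical.
mmu-miR-34a-5p: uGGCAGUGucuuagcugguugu
mmu-miR-34b-5p: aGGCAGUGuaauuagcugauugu
The match to bases 2 to 8 of the seed in a 3′ untranslated region reads CACTGCC. Lef1 and Axl, published targets, each hold it directly before an A, and Inhbb holds it before another base. The 30-base sites lie on GRCm38 at chr3:131223237-131223266 (Lef1, plus strand), chr7:25758607-25758636 (Axl, minus strand) and chr1:119416784-119416813 (Inhbb, minus strand), with the match in capitals.
Lef1 site: ctgacccgaagacacagtCACTGCCacctc
Axl site: ctcaggacccaagctaggCACTGCCactgg
Inhbb site: ggcacagtcctgcctgctCACTGCCcgcct
A p53 half-site is a 10-base motif known by that name, searched here with no mismatch and the same on both strands. The windows from 250 bases before to 50 after the start of Ccng1 (RefSeq, GRCm38.p6, chr11:40755237-40755536, minus strand) and of Cdkn1a (chr17:29090729-29091028, plus strand) hold it, in capitals.
Ccng1 promoter: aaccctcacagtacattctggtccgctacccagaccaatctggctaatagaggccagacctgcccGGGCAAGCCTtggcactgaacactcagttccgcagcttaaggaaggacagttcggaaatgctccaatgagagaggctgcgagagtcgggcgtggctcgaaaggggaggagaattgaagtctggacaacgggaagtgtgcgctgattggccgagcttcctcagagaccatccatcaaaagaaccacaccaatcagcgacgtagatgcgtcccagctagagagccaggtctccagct
Cdkn1a promoter: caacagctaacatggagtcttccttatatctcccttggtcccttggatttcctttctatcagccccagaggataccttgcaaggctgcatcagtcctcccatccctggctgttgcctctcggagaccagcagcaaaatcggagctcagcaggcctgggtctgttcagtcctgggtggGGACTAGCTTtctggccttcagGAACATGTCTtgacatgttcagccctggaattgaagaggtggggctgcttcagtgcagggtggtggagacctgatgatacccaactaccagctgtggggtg
The Ccng1 window had 1 half-site and the Cdkn1a window 2. Of 32851 such windows in the reference, 8.36% held at least 1. Counted by gene, as the targets are below, the share was 9.55% of 27025. Windows were found for 10 of the 12 p53 targets that changed here and 2 of these held a half-site, against 12 of 39 windows of targets that did not change. A match is a description of the letters and not a bound site.

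The deleted gene was read first. Trp53 had values of 598, 401 and 576 in p53 deficient tumours and 4357, 3466 and 5120 in miR-34a deficient tumours. The 3 p53 deficient values all lay below the 3 miR-34a deficient values. Trp53 (ENSMUSG00000059552, chromosome 11, 69580359 to 69591873, plus strand, GRCm38) fell by 3.04 ± 0.24 on the log2(value + 1) scale (± standard error throughout; limma adjusted p = 0.0002), that is 8.23-fold. The labels do not give which part of the gene was deleted, and the source of the remaining Trp53 RNA in p53 deficient tumours was not tested. Mature miR-34a is not analysed here, so for that deletion no transcript checks the label.

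The tissue label was checked on markers of intestinal epithelium. Epcam, an epithelial adhesion molecule, had values of 91087, 83187 and 144005 in p53 deficient tumours and 87965, 87322 and 84955 in miR-34a deficient tumours. Cdh1 (E-cadherin), Vil1 (villin of the brush border) and Krt20 were present in all 6 libraries too, and none of the 4 changed. Cdx2, a transcription factor of intestinal epithelium, was at 78, 169 and 126 in p53 deficient tumours and 101, 101 and 135 in miR-34a deficient tumours.

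Some libraries stood apart from their group before any comparison. The 8 posterior Hox genes averaged 8.16 on the log2 scale in p53 deficient 2, against 11.9 to 14.1 in the other 5 libraries. Hoxd13, a gene of the hind body, was at 2075989, 1203 and 149715 in p53 deficient tumours and 741024, 2272369 and 437212 in miR-34a deficient tumours. Xist, the RNA of the silenced X chromosome, made up 0.000221% to 0.00958% of all values in p53 deficient tumours, and 52.8%, 0.234% and 0.00141% in miR-34a deficient tumours. On the same scale, 4 Y-linked genes averaged 3.73, 5.21 and 6.98 in p53 deficient tumours and 0, 2.77 and 5.28 in miR-34a deficient tumours. The labels do not give the sex of the mice. Krt5, a keratin of squamous epithelium, was at 200, 15 and 40 in p53 deficient tumours and 79, 86 and 115764 in miR-34a deficient tumours, so miR-34a deficient 3 stood alone.

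Between the 2 single deletions, 722 genes changed, 242 higher and 480 lower in p53 deficient tumours. Unless wt is named, rose and fell compare p53 deficient with miR-34a deficient tumours. They do not tell which of the 2 differs from wt. Changed means an adjusted p under 0.05 in limma, fitted to log2(value + 1) of all 12 libraries with the Benjamini-Hochberg adjustment over the 21322 genes. That is 3.39% of the genes tested, 1.13% higher and 2.25% lower, and the median log2 difference of all genes was -0.10. Rescaling moved that split to 352 higher and 418 lower with median-of-ratios and to 246 higher and 285 lower with quantile normalization, and the median to -0.02 and 0.04. The deposited values hold 7 of the 8 directions of spread that 12 libraries in 4 groups should have, which makes the estimated spread too small. Carrying the missing direction as a covariate left 147 changed genes (0.689%), and leaving the double deficient libraries out of the fit left 260 (1.22%). All 147 were among both the 260 and the 722, 30 higher and 117 lower, and they are called changed in all 3 fits below. The 6 libraries alone gave 37 changed genes and a Y-linked covariate 27, and the count ranged from 41 to 1267 as single libraries were left out. Changed under all 30 alternatives were 15 genes, 4 higher and 11 lower.

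**Figure D1:**
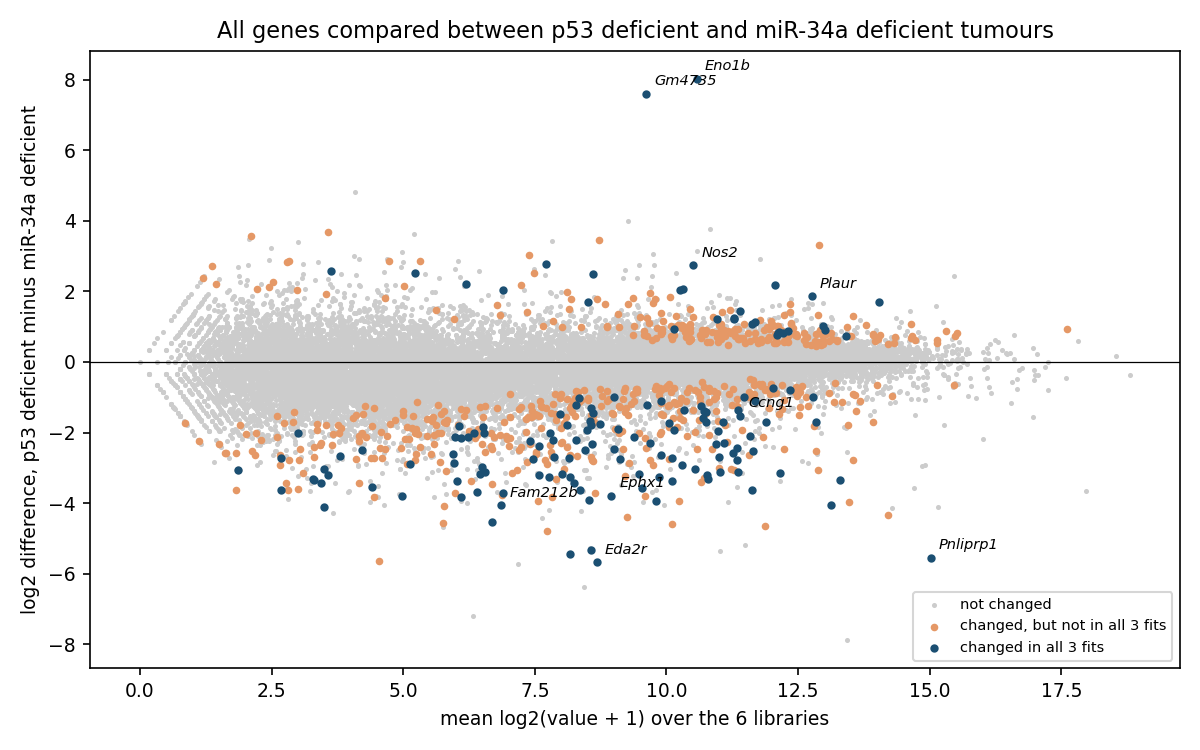
Log2 difference (p53 deficient minus miR-34a deficient, y axis) against the mean log2(value + 1) of the 6 libraries (x axis) for the 21322 genes. The 147 genes changed in all 3 fits (dark blue) reach from Eda2r at -5.67 to Eno1b at 8.03, and the other changed genes (orange) passed in the fit of 12 libraries but not in all 3.

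Genes that p53 switches on were lower in p53 deficient tumours. Of 58 targets in 3 lists, 12 fell and none rose, that is 20.7% lower against 2.25% of all genes. Below 0 lay 43 of the 58, with a median log2 difference of -0.36 against -0.10 over all genes. The 3 p53 deficient values all lay below the 3 miR-34a deficient values for 22 of the 58. Groups of 3 do not overlap in either direction for 27.7% of all genes tested, and did not for 25 of the 58. As alternatives, 9 of the 12 passed with the covariate, 6 targets with only the 6 libraries, 3 with the Y-linked covariate, and 4 (without miR-34a deficient 3) to 16 (without p53 deficient 1) as single libraries were left out. The lists were chosen with earlier results of these data known, and the direction of several members was known from them.

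Among the targets that act in cell cycle arrest and feedback, 5 of 19 fell. Fam212b, also named Inka2, which encodes an inhibitor of the kinase Pak4, fell furthest. Fam212b had values of 35, 27 and 22 in p53 deficient tumours and 324, 720 and 463 in miR-34a deficient tumours. The groups did not overlap, and the difference was -4.07 ± 0.39 (adjusted p = 0.000968), with a pass under all 30 alternatives. Ccng1 had values of 1764, 1665 and 1363 in p53 deficient tumours and 4404, 4149 and 5149 in miR-34a deficient tumours. Ccng1 encodes cyclin G1 and carries the half-site printed above. It fell by 1.52 ± 0.18 (adjusted p = 0.00434), with no overlap and a pass under all 30 alternatives. Psrc1 had values of 70, 93 and 86 in p53 deficient tumours and 328, 803 and 317 in miR-34a deficient tumours. Psrc1, a microtubule-associated protein, fell by 2.39 ± 0.43 (adjusted p = 0.0215). Zmat3, an RNA-binding zinc finger protein, fell by 1.38 ± 0.24 (adjusted p = 0.0202), and Sesn2, a sestrin that restrains mTORC1, fell by 1.15 ± 0.23 (adjusted p = 0.0299). All but Sesn2 changed in all 3 fits.

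Other arrest and feedback targets did not pass. Cdkn1a had values of 9454, 10113 and 12694 in p53 deficient tumours and 17793, 24443 and 24519 in miR-34a deficient tumours. Cdkn1a encodes the cell cycle inhibitor p21 and has the 2 half-sites printed above. Its groups did not overlap, and the difference of -1.05 ± 0.32 had an adjusted p of 0.0932. Mdm2 had values of 3553, 3988 and 4296 in p53 deficient tumours and 4283, 4715 and 4318 in miR-34a deficient tumours. The Mdm2 values overlapped, with a difference of -0.17 ± 0.14 (adjusted p = 0.491). Gdf15, a secreted stress factor, was at 195, 2244 and 242 in p53 deficient tumours and 493, 503 and 881 in miR-34a deficient tumours. Its value in p53 deficient 2 lay above all 3 miR-34a deficient values and those in p53 deficient 1 and 3 below them.

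Among the targets that act in cell death, 2 of 18 fell. Eda2r had values of 155, 27 and 42 in p53 deficient tumours and 2452, 3878 and 2581 in miR-34a deficient tumours. Eda2r, the receptor of ectodysplasin A2, fell by 5.67 ± 0.74 (adjusted p = 0.00712), the lowest difference of all changed genes, and changed in all 3 fits. Bbc3 had values of 147, 99 and 161 in p53 deficient tumours and 364, 437 and 715 in miR-34a deficient tumours. Bbc3 encodes the BH3-only protein Puma and fell by 1.86 ± 0.37 (adjusted p = 0.0302). It did not pass with the covariate (adjusted p = 0.0621). Bax had values of 1836, 2847 and 3220 in p53 deficient tumours and 3856, 4749 and 4087 in miR-34a deficient tumours. Bax, a pore-forming death effector, did not overlap between the groups and did not pass, at -0.72 ± 0.28 (adjusted p = 0.152). Pidd1, a death domain protein, missed the threshold at -0.72 ± 0.18 (adjusted p = 0.0535).

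Among the metabolic and repair targets, 5 of the 21 measured fell. Ephx1 had values of 90, 244 and 105 in p53 deficient tumours and 1756, 2032 and 1742 in miR-34a deficient tumours. Ephx1, the microsomal epoxide hydrolase, fell by 3.79 ± 0.56 (adjusted p = 0.0118). 9030617O03Rik had values of 108, 127 and 85 in p53 deficient tumours and 458, 537 and 494 in miR-34a deficient tumours. This gene, also named Dglucy, encodes D-glutamate cyclase. It fell by 2.22 ± 0.26 (adjusted p = 0.00434), with a pass under all 30 alternatives. Phlda3 had values of 883, 928 and 1221 in p53 deficient tumours and 4410, 6014 and 8268 in miR-34a deficient tumours. Phlda3, which restrains Akt at the membrane, fell by 2.59 ± 0.40 (adjusted p = 0.0153). Gls2, the glutaminase of mitochondria, fell by 1.92 ± 0.35 (adjusted p = 0.0223) and Cpt1c, a carnitine palmitoyltransferase, by 2.20 ± 0.52 (adjusted p = 0.0446). All but Cpt1c changed in all 3 fits.

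**Figure D2:**
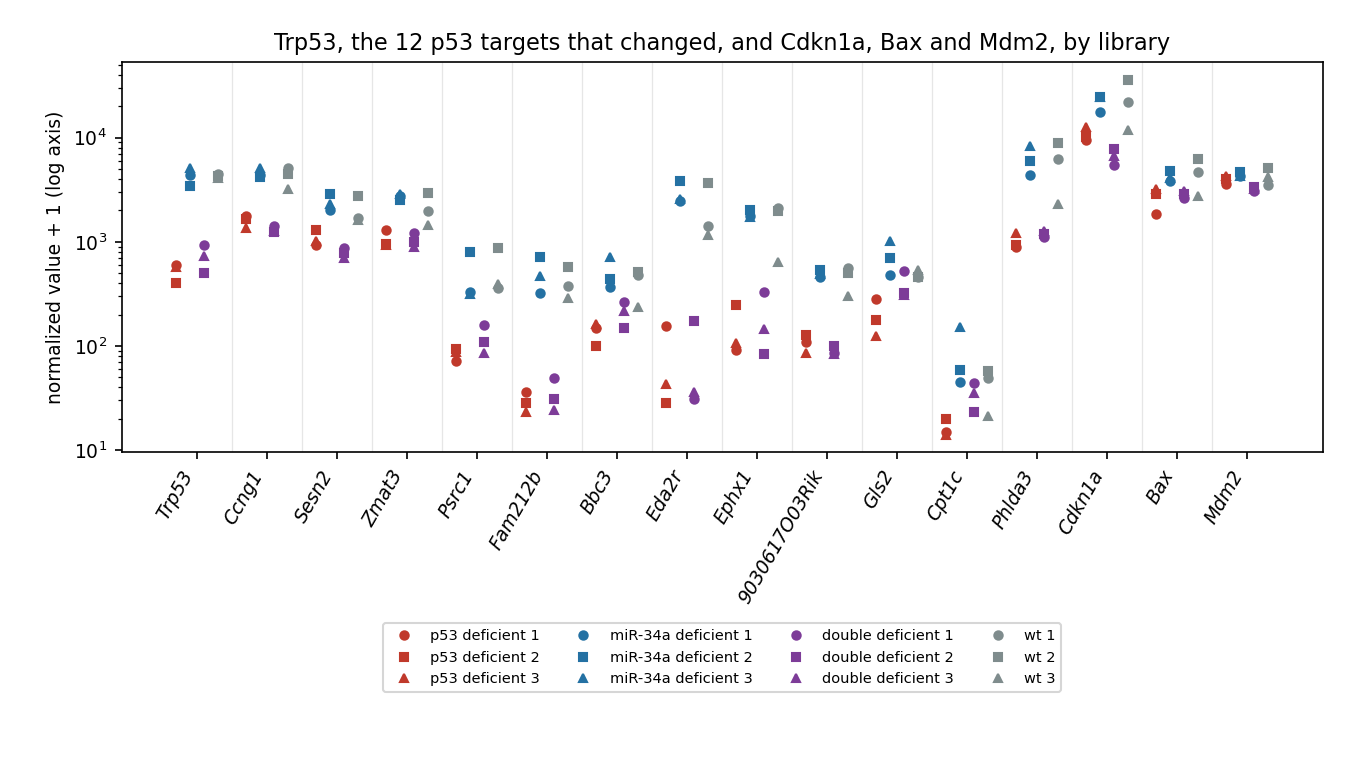
Normalized value + 1 (log axis) of Trp53, the 12 p53 targets that changed, and Cdkn1a, Bax and Mdm2 (x axis), 1 point per library. For each of the 12 targets the 3 p53 deficient points (red) lie below the 3 miR-34a deficient points (blue); the Mdm2 points overlap.

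Published miR-34a targets passed at about the share of all genes. Of 55 measured, 1 rose and 1 fell, that is 3.64% against 3.39% of all genes, 20 lay above 0 and the median log2 difference was -0.12, against -0.10 over all genes. Lef1 had values of 685, 96 and 468 in p53 deficient tumours and 2127, 1552 and 3137 in miR-34a deficient tumours. Lef1, a transcription factor of the Wnt pathway whose site is printed above, fell by 2.79 ± 0.61 (adjusted p = 0.0375), with no overlap. It did not pass with the covariate (adjusted p = 0.0727). Birc5, the mitotic regulator survivin, rose by 0.86 ± 0.19 (adjusted p = 0.0369), at 1600, 1968 and 1769 in p53 deficient tumours and 861, 892 and 1215 in miR-34a deficient tumours.

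Receptors and growth factors among the published targets did not pass. Inhbb had values of 208, 131 and 280 in p53 deficient tumours and 449, 435 and 614 in miR-34a deficient tumours. Inhbb encodes an activin subunit. Its groups did not overlap, at -1.32 ± 0.37 (adjusted p = 0.074). Axl, a receptor tyrosine kinase, was at 854, 646 and 417 in p53 deficient tumours and 1061, 1382 and 982 in miR-34a deficient tumours, a difference of -0.88 ± 0.35 (adjusted p = 0.166) with no overlap. Il6ra, the IL-6 receptor, differed by -1.03 ± 0.55 (adjusted p = 0.286) with overlap, and Met, the receptor of hepatocyte growth factor, by 0.12 ± 0.15 (adjusted p = 0.682). The kinase Cdk4 was at -0.12 ± 0.13 (adjusted p = 0.624) and cyclin E2, encoded by Ccne2, at 0.22 ± 0.18 (adjusted p = 0.474).

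Genes with a seed match were also read across the transcriptome. A 3′ untranslated region was annotated for 15854 of the genes tested, and 15.8% of them, 2501, held CACTGCC. Their median log2 difference was -0.09, with 2.52% lower and 1.12% higher. The 868 genes with the match directly before an A had a median of -0.11, with 2.53% lower and 0.346% higher. The 13353 genes without it had a median of -0.08, with 2.22% lower and 1.34% higher. Genes with a match had a median untranslated length of 2254 bases, against 892 bases without, so length differs between the classes.

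Some Wnt target genes fell in p53 deficient tumours. Wnt signalling keeps the colon's stem cells dividing through β-catenin, and many of its targets encode secreted or membrane inhibitors that damp it. Of 26 Wnt targets, 8 fell and none rose, that is 30.8% against 3.39% of all genes, and 5 lay above 0, with a median log2 difference of -1.20. Against wt tumours the median was -0.67 in p53 deficient tumours and 0.55 in miR-34a deficient tumours. With the covariate 1 passed, without the double deficient libraries 2, and with the 6 libraries alone or the Y-linked covariate none. The mean log2(value + 1) of the members was 11.1, 9.89 and 11.1 in p53 deficient tumours and 12.1, 11.9 and 12.5 in miR-34a deficient tumours, so p53 deficient 2 was lowest. Without that library the median difference was -0.89, and its part in the result was not otherwise tested. Wif1 had values of 1793, 449 and 914 in p53 deficient tumours and 10914, 7264 and 17261 in miR-34a deficient tumours. Wif1, a secreted Wnt inhibitor, fell by 3.62 ± 0.53 (adjusted p = 0.0114), the one of the 8 that changed in all 3 fits. Nkd1 had values of 3562, 905 and 5437 in p53 deficient tumours and 22672, 12618 and 35106 in miR-34a deficient tumours. Nkd1, a cytoplasmic inhibitor of Dishevelled, fell by 3.05 ± 0.62 (adjusted p = 0.0306). Notum had values of 2088, 325 and 926 in p53 deficient tumours and 6638, 4183 and 13337 in miR-34a deficient tumours. Notum, an enzyme that strips the lipid from Wnt proteins, fell by 3.07 ± 0.69 (adjusted p = 0.0398).

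The other 4 Wnt targets that fell beside Lef1 were of mixed kinds. Apcdd1 had values of 9482, 696 and 3556 in p53 deficient tumours and 33503, 29593 and 88477 in miR-34a deficient tumours. Apcdd1, a membrane Wnt inhibitor, fell by 3.96 ± 0.86 (adjusted p = 0.0368). The lowest p53 deficient value was that of p53 deficient 2 for each of the 8 except Dkk3. Dkk3, of the Dickkopf family, fell by 2.93 ± 0.55 (adjusted p = 0.0252), Prox1, a homeobox transcription factor, by 2.77 ± 0.56 (adjusted p = 0.0306), and Tnfrsf19, also named Troy, by 2.75 ± 0.57 (adjusted p = 0.0327). Not every Wnt target lay low. Axin2 had values of 9662, 3225 and 7857 in p53 deficient tumours and 14133, 9846 and 21881 in miR-34a deficient tumours. Axin2, a scaffold of the β-catenin destruction complex, differed by -1.21 ± 0.39 (adjusted p = 0.101) with no overlap. Myc was at 0.54 ± 0.18 (adjusted p = 0.104) and Cd44 at 0.50 ± 0.15 (adjusted p = 0.0806).

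Intestinal stem cell genes gave no single direction, with 1 higher, 2 lower and 8 of 19 above 0. The called share was 15.8%, against 3.39% of all genes. Lgr5 had values of 662, 749 and 2685 in p53 deficient tumours and 1729, 2698 and 2043 in miR-34a deficient tumours. Lgr5, the R-spondin receptor that marks crypt base stem cells, overlapped, at -0.95 ± 0.67 (adjusted p = 0.424). Hopx had values of 12921, 14686 and 14591 in p53 deficient tumours and 9214, 9014 and 7341 in miR-34a deficient tumours. Hopx, a homeodomain protein, rose by 0.73 ± 0.13 (adjusted p = 0.0196) and changed in all 3 fits. Msi1, an RNA-binding protein, fell by 2.40 ± 0.58 (adjusted p = 0.0488).

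Some proliferation genes rose in p53 deficient tumours. Of 36, 5 rose and none fell, that is 13.9% against 3.39% of all genes, and 35 lay above 0 with a median log2 difference of 0.64. Against wt tumours the median was 0.27 in p53 deficient tumours and -0.35 in miR-34a deficient tumours. None of the 36 passed with the covariate, without the double deficient libraries, with the 6 libraries alone or with the Y-linked covariate. Ccna2 had values of 5406, 5832 and 7692 in p53 deficient tumours and 2927, 2952 and 3418 in miR-34a deficient tumours. Ccna2, cyclin A2 of S phase and G2, rose by 1.01 ± 0.21 (adjusted p = 0.0341). Foxm1 had values of 2831, 3437 and 3285 in p53 deficient tumours and 1668, 1707 and 1994 in miR-34a deficient tumours. Foxm1, a transcription factor of mitotic genes, rose by 0.83 ± 0.20 (adjusted p = 0.0475). Kif23, a kinesin of cell division, rose by 1.07 ± 0.22 (adjusted p = 0.0306) and Cdc20, which activates the anaphase-promoting complex, by 0.71 ± 0.16 (adjusted p = 0.0375); Birc5, above, is the fifth. Mki67, which encodes Ki-67, did not overlap and did not pass, at 0.72 ± 0.26 (adjusted p = 0.135).

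Some genes that build ribosomes rose as well. Of 22, 6 rose and none fell, that is 27.3% against 3.39% of all genes, and all 22 lay above 0, with a median log2 difference of 0.53. Against wt tumours the median was 0.48 in p53 deficient tumours and -0.10 in miR-34a deficient tumours. With the covariate, or without the double deficient libraries, 2 passed, and with the 6 libraries alone or the Y-linked covariate none. Ftsj3 had values of 4611, 5764 and 4432 in p53 deficient tumours and 2610, 1845 and 2282 in miR-34a deficient tumours. Ftsj3, a methyltransferase of ribosome assembly, rose by 1.14 ± 0.17 (adjusted p = 0.0126). Mybbp1a had values of 12129, 10362 and 11504 in p53 deficient tumours and 7137, 4731 and 6357 in miR-34a deficient tumours. Mybbp1a, a nucleolar Myb-binding protein, rose by 0.92 ± 0.16 (adjusted p = 0.0196), and these 2 changed in all 3 fits. Ncl had values of 56103, 51943 and 56191 in p53 deficient tumours and 35233, 23329 and 32904 in miR-34a deficient tumours. Ncl, nucleolin, rose by 0.87 ± 0.16 (adjusted p = 0.025). Npm1, nucleophosmin, rose by 0.72 ± 0.14, Nop58 by 0.71 ± 0.15 and Gnl3, nucleostemin, by 0.73 ± 0.16 (adjusted p = 0.0276, 0.033 and 0.0375). Ftsj3, Mybbp1a and Npm1 lie on chromosome 11, which is described below.

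Glycolysis and hypoxia genes gave 3 calls. Of 25, 2 rose and 1 fell, that is 12.0% against 3.39% of all genes. Above 0 lay 23 of the 25, with a median log2 difference of 0.71. Against wt tumours the median was 0.57 in p53 deficient tumours and -0.12 in miR-34a deficient tumours. None of the 25 passed with the covariate. Pgk1 had values of 26054, 42930 and 46398 in p53 deficient tumours and 17850, 17213 and 17513 in miR-34a deficient tumours. Pgk1, phosphoglycerate kinase, rose by 1.09 ± 0.21 (adjusted p = 0.0271). Pfkm, a phosphofructokinase, rose by 1.00 ± 0.24 (adjusted p = 0.0471). Ldha, lactate dehydrogenase A, was at 0.68 ± 0.18 (adjusted p = 0.0664) and Slc2a1, the glucose transporter Glut1, at 1.22 ± 0.37 (adjusted p = 0.0893), with 8455, 10896 and 28583 in p53 deficient tumours and 5844, 7235 and 4902 in miR-34a deficient tumours. All 13 genes encoded by mitochondrial DNA lay below 0, with a median of -0.69 and none called, and without p53 deficient 2 their median was -0.28.

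The glycolysis gene that fell was an enolase. Eno1 had values of 31544, 39717 and 36424 in p53 deficient tumours and 53416, 58471 and 58185 in miR-34a deficient tumours. Eno1 lies 0.168 Mb from Mir34a on chromosome 4 and fell by 0.66 ± 0.13 (adjusted p = 0.0301). Eno1b had values of 19687, 28557 and 26524 in p53 deficient tumours and 85, 135 and 71 in miR-34a deficient tumours. Eno1b, a near-identical copy on another chromosome, rose by 8.03 ± 0.27 (adjusted p = 8.02e-08), the highest difference of all genes changed here. Reads of the 2 copies can be split between them in ways the table does not show, so their levels are uncertain one by one. The fall of Eno1 is therefore not shown to be a fall of enolase RNA in total. Gm4735 had values of 6583, 15850 and 12334 in p53 deficient tumours and 154, 53 and 20 in miR-34a deficient tumours. Gm4735, annotated as a processed pseudogene on chromosome 2, rose by 7.60 ± 0.66 (adjusted p = 0.000419). Rpl35a had values of 528, 588 and 619 in p53 deficient tumours and 4475, 6149 and 5453 in miR-34a deficient tumours. Rpl35a, a protein of the large ribosomal subunit that has pseudogene copies, fell by 3.20 ± 0.23 (adjusted p = 0.000151). Eno1b, Gm4735 and Rpl35a passed under all 30 alternatives.

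**Figure D3:**
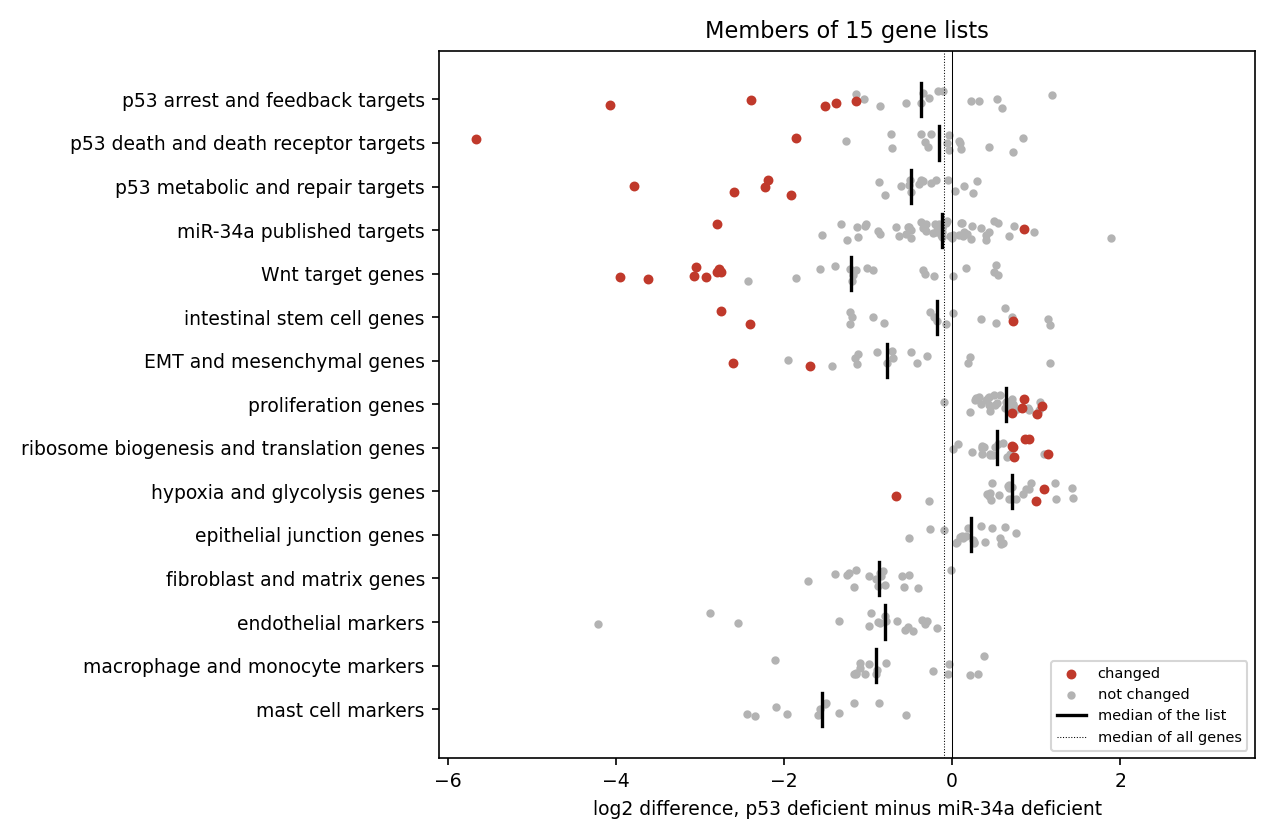
Log2 difference (p53 deficient minus miR-34a deficient, x axis) of each member of 15 gene lists (y axis), with changed members in red and the list's median as a bar. Changed members of the 3 p53 target lists and of the Wnt list all lie below 0, and those of the proliferation and ribosome lists all lie above it.

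Of 17 genes of epithelial-mesenchymal transition, 2 fell and none rose, that is 11.8% against 3.39% of all genes, and 3 lay above 0. Vim had values of 2278, 1852 and 2199 in p53 deficient tumours and 7757, 6330 and 6409 in miR-34a deficient tumours. Vim, the intermediate filament vimentin, fell by 1.69 ± 0.29 (adjusted p = 0.0196) and changed in all 3 fits. Snai2 had values of 33, 17 and 5 in p53 deficient tumours and 75, 79 and 136 in miR-34a deficient tumours. Snai2, the transcription factor Slug, fell by 2.61 ± 0.58 (adjusted p = 0.0377). Both are also made by fibroblasts, endothelium or macrophages.

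None of 18 fibroblast and matrix genes passed, but all 18 lay below 0, with a median log2 difference of -0.87. Their summed value was 17350 to 35209 in p53 deficient tumours and 38380 to 58975 in miR-34a deficient tumours, and no member was at 0 in any of the 6 libraries. All 18 endothelial markers lay below 0 (median -0.80, summed 3072 to 5299 in p53 deficient tumours and 6211 to 9042 in miR-34a deficient tumours), and so did 14 of 17 macrophage markers (median -0.91, summed 10433 to 13094 in p53 deficient tumours and 14179 to 18576 in miR-34a deficient tumours). All 12 mast cell markers lay below 0 with a median of -1.54. None of these was called. Of all 21322 genes, 12197 lay below 0. Against wt tumours the endothelial median was 0.24 in p53 deficient tumours and 0.93 in miR-34a deficient tumours. In the same order, the fibroblast and matrix median was -0.37 and 0.44. The macrophage median was -0.55 and 0.20, and the mast cell median -1.03 and 0.51. Epithelial junction genes lay above 0 for 19 of 22, with a median of 0.22 and none called. In whole tumours, fewer cells of a type and less RNA per cell cannot be told apart, and the part of the stromal cells in the levels of Vim and Snai2 was not tested.

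Inflammatory genes gave single calls. Nos2 had values of 2679, 3959 and 5029 in p53 deficient tumours and 326, 890 and 611 in miR-34a deficient tumours. Nos2, the inducible nitric oxide synthase, rose by 2.74 ± 0.44 (adjusted p = 0.017) and changed in all 3 fits. It lies on chromosome 11, which is described below. It was the one of 22 cytokine, chemokine and inflammation genes that passed, that is 4.55% against 3.39% of all genes. Plaur had values of 8202, 17879 and 15812 in p53 deficient tumours and 3400, 4841 and 2889 in miR-34a deficient tumours. Plaur, the urokinase receptor, rose by 1.87 ± 0.32 (adjusted p = 0.0196) and also changed in all 3 fits. It was the one of 12 plasminogen activation genes that passed, that is 8.33% against 3.39% of all genes. Xaf1 had values of 408, 756 and 250 in p53 deficient tumours and 97, 76 and 54 in miR-34a deficient tumours. Xaf1, an interferon-induced gene, rose by 2.52 ± 0.47 (adjusted p = 0.0251), with none of the other 21 interferon genes called. The called share of the interferon list was 4.55%, against 3.39% of all genes. No gene of the IL-6 and STAT3 list of 20 passed, with 2 at an unadjusted p under 0.05 in limma and none called by the fits with the covariate, without the double deficient libraries or of the 6 libraries. Il6 had values of 46, 15 and 19 in p53 deficient tumours and 1, 11 and 20 in miR-34a deficient tumours. The Il6 values overlapped, at 1.63 ± 0.88 (adjusted p = 0.285).

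Among detoxification genes, 1 of 23 rose and 1 fell, that is 8.70% against 3.39% of all genes. Gsta1 had values of 1394, 3222 and 3374 in p53 deficient tumours and 419, 958 and 542 in miR-34a deficient tumours. Gsta1, a glutathione transferase, rose by 2.04 ± 0.35 (adjusted p = 0.0196), and the one that fell is the p53 target Ephx1. Colonocyte, goblet, enteroendocrine, tuft, smooth muscle, neutrophil, lymphocyte and squamous marker lists had no called member.

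The genes with the largest differences were of many kinds. Named are the 15 furthest in each direction at a mean value of at least 100, with no overlap between the groups and a symbol that is not a clone or predicted-gene name. Among the 15 that rose were, beside Eno1b, Nos2, Xaf1, Gsta1 and Plaur, an enzyme group. Ak4 had values of 271, 734 and 808 in p53 deficient tumours and 91, 91 and 59 in miR-34a deficient tumours. Ak4, a mitochondrial adenylate kinase, rose by 2.77 ± 0.47 (adjusted p = 0.0196) and changed in all 3 fits. Gyk had values of 1431, 4645 and 2654 in p53 deficient tumours and 634, 715 and 541 in miR-34a deficient tumours. Gyk, glycerol kinase, rose by 2.05 ± 0.37 (adjusted p = 0.0216) and also changed in all 3 fits. Hoga1, an aldolase of mitochondrial hydroxyproline breakdown, rose by 2.19 ± 0.50 (adjusted p = 0.0413), Camk2b, a calmodulin-dependent kinase, by 3.31 ± 0.74 (adjusted p = 0.0381) and Rnf157, a ubiquitin ligase, by 1.83 ± 0.35 (adjusted p = 0.0269).

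Others of the 15 were of mixed kinds. Prr9 rose by 3.47 ± 0.70 (adjusted p = 0.0306), Trib3, a pseudokinase induced by amino acid shortage, by 3.02 ± 0.70 (adjusted p = 0.0435), Igf2bp2, an RNA-binding protein, by 1.99 ± 0.47 (adjusted p = 0.0451) and Slc7a5, a transporter of large amino acids, by 1.97 ± 0.37 (adjusted p = 0.0251). These 4 did not pass with the covariate, and neither did Hoga1, Camk2b and Rnf157.

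Among the 15 that fell were transporters and secreted proteins, beside Eda2r, Fam212b and Apcdd1. The clone names 4932411E22Rik, at -5.43, and 2700046A07Rik, at -5.32, also fell and are outside that naming rule. Pnliprp1 had values of 13203, 4850 and 1779 in p53 deficient tumours and 97250, 147059 and 818248 in miR-34a deficient tumours. Pnliprp1, a relative of pancreatic lipase, fell by 5.55 ± 1.01 (adjusted p = 0.0226). Spock2 had values of 2688, 892 and 4326 in p53 deficient tumours and 36624, 18662 and 69028 in miR-34a deficient tumours. Spock2, a proteoglycan of the matrix, fell by 4.05 ± 0.64 (adjusted p = 0.0156). Ankfn1 had values of 33, 28 and 9 in p53 deficient tumours and 388, 282 and 1117 in miR-34a deficient tumours. In wt tumours it was at 54, 28 and 28, which overlapped the p53 deficient values. Ankfn1 fell by 4.54 ± 0.57 (adjusted p = 0.00575), and these 3 changed in all 3 fits. Abcc2, an exporter of conjugated compounds, fell by 4.65 ± 0.94, Ptn, the growth factor pleiotrophin, by 4.35 ± 0.90, and Irx5, an Iroquois homeobox factor, by 4.59 ± 0.91 (adjusted p = 0.0306, 0.0324 and 0.0302). Mt4, a metallothionein, fell by 4.40 ± 0.86, Pdk4, which inhibits pyruvate dehydrogenase, by 4.55 ± 1.01, and Gabra4, a GABA receptor subunit, by 4.80 ± 0.95 (adjusted p = 0.0298, 0.0375 and 0.0301). Ly6k fell by 5.64 ± 1.17, Rdh9, a retinol dehydrogenase, by 3.96 ± 0.87, and H60b, a ligand of the receptor NKG2D, by 3.95 ± 0.82 (adjusted p = 0.033, 0.0375 and 0.0324). None of these last 9 passed with the covariate.

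Genes beside the deleted loci were counted next. Within 5 Mb of Trp53, 11 of 186 neighbours rose and 1 fell, that is 6.45% against 3.39% over all genes, and their median log2 difference was 0.07. Over all of chromosome 11, 4.70% rose and 1.67% fell, with a median of 0.13, so the neighbours did not stand apart from their chromosome. Sat2 had values of 98, 167 and 228 in p53 deficient tumours and 29, 30 and 41 in miR-34a deficient tumours. Sat2, a diamine acetyltransferase 0.0302 Mb from Trp53, rose by 2.20 ± 0.36 (adjusted p = 0.0175) and changed in all 3 fits. Eif4a1 and Eif5a, 2 translation factors at 0.0751 and 0.325 Mb, rose by 0.53 ± 0.12 and 0.63 ± 0.13 (adjusted p = 0.0413 and 0.0303). Mgl2 had values of 4, 3 and 2 in p53 deficient tumours and 35, 49 and 25 in miR-34a deficient tumours. Mgl2, a lectin of macrophages and dendritic cells, was the neighbour that fell, by 3.20 ± 0.42 (adjusted p = 0.00712). The others that rose were Usp43 at 0.90 ± 0.20, Cfap52 at 2.59 ± 0.43, Ndel1 at 0.67 ± 0.14, Cxcl16 at 0.71 ± 0.17, C1qbp at 0.90 ± 0.21, Trpv1 at 2.51 ± 0.36, Xaf1 and Mybbp1a. Cfap52 was at 27, 48 and 19 in p53 deficient tumours and 22, 26 and 21 in wt tumours, which overlapped. Xaf1, at 357, 255 and 797 in wt tumours, overlapped too. Sat2, at 24, 27 and 19 in wt tumours, and Mybbp1a, at 5816, 5814 and 6183, did not.

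Within 5 Mb of Mir34a, 8 of 134 neighbours fell and 1 rose, that is 6.72%, with a median of -0.22. Over all of chromosome 4, 3.50% fell and 0.856% rose, with a median of -0.14. Gm13067 had values of 3, 4 and 0 in p53 deficient tumours and 47, 44 and 46 in miR-34a deficient tumours. Gm13067, a long noncoding RNA gene 0.0115 Mb before Mir34a, fell by 4.10 ± 0.56 (adjusted p = 0.00941) and changed in all 3 fits. Clstn1 had values of 4229, 4277 and 5234 in p53 deficient tumours and 8537, 10815 and 7959 in miR-34a deficient tumours. Clstn1, a calsyntenin, fell by 0.99 ± 0.20 (adjusted p = 0.0306). Plod1, a lysyl hydroxylase of collagen, fell by 1.41 ± 0.29, Plekhg5 by 1.04 ± 0.23, Tnfrsf25, a death receptor, by 2.12 ± 0.40 and Gpr153 by 1.56 ± 0.38 (adjusted p = 0.0322, 0.037, 0.0252 and 0.0497). Eno1 and the predicted gene Gm13203, at -2.02 ± 0.45, complete those that fell, and the predicted gene Gm13230 rose by 2.06 ± 0.48.

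The 6 libraries outside the comparison give a second, separate pair of groups, double deficient and wt tumours. A gene that differed by p53 status alone would have the same sign there, and a gene that differed by miR-34a status alone the opposite sign. Of the 722 changed genes, 499 had the same sign there (69.1%), against 57.9% of all genes tested. Double deficient tumours differed from wt in 171 genes (0.802%), 34 of them among the 722. Of these 34, 25 had the same sign and 9 the opposite sign. Both differences come from the 1 fit of 12 libraries and share its estimate of the spread, so their calls are not independent. The missing direction of spread has 71.6% of its weight on the 3 double deficient libraries. The calls against wt were not repeated with the covariate.

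The 25 with the same sign included Trp53, 8 of the 12 p53 targets that fell, Sat2 and Mybbp1a. Eda2r was at 30, 174 and 35 in double deficient tumours and 1411, 3671 and 1164 in wt tumours, a difference of -4.97 (adjusted p = 0.0156). Ccng1 was at 1402, 1228 and 1261 in double deficient tumours and 5125, 4437 and 3217 in wt tumours, at -1.69 (adjusted p = 0.002). Cdkn1a, which missed the threshold between the single deletions, was at 5448, 7855 and 6695 in double deficient tumours and 22035, 35763 and 11867 in wt tumours and fell there, at -1.68 (adjusted p = 0.0439).

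The 9 with the opposite sign were led by Eno1b, Rpl35a and Gm4735. Eno1b was at 126, 225 and 165 in double deficient tumours and 19469, 16386 and 14333 in wt tumours. Rpl35a was at 8262, 7922 and 8714 in double deficient tumours and 912, 542 and 428 in wt tumours, high in both genotypes without miR-34a. Eno1 was at 62728, 63730 and 66176 in double deficient tumours and 32469, 32296 and 24964 in wt tumours. Trpv1, a cation channel 3.64 Mb from Trp53, was at 13, 15 and 12 in double deficient tumours and 78, 37 and 41 in wt tumours, low in both genotypes without miR-34a although it neighbours Trp53. Ccna1, Rpl35a-ps4, Rpl35a-ps6 and Gm10247 were the others.

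The Wnt inhibitor Wif1, changed in all 3 fits, did not pass there. Wif1 differed by -0.10 between double deficient and wt tumours (adjusted p = 0.952), at 8207, 3631 and 4407 in double deficient tumours and 4891, 9620 and 3470 in wt tumours. Its wt values lay above the p53 deficient values and overlapped the miR-34a deficient values.

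**Figure D4:**
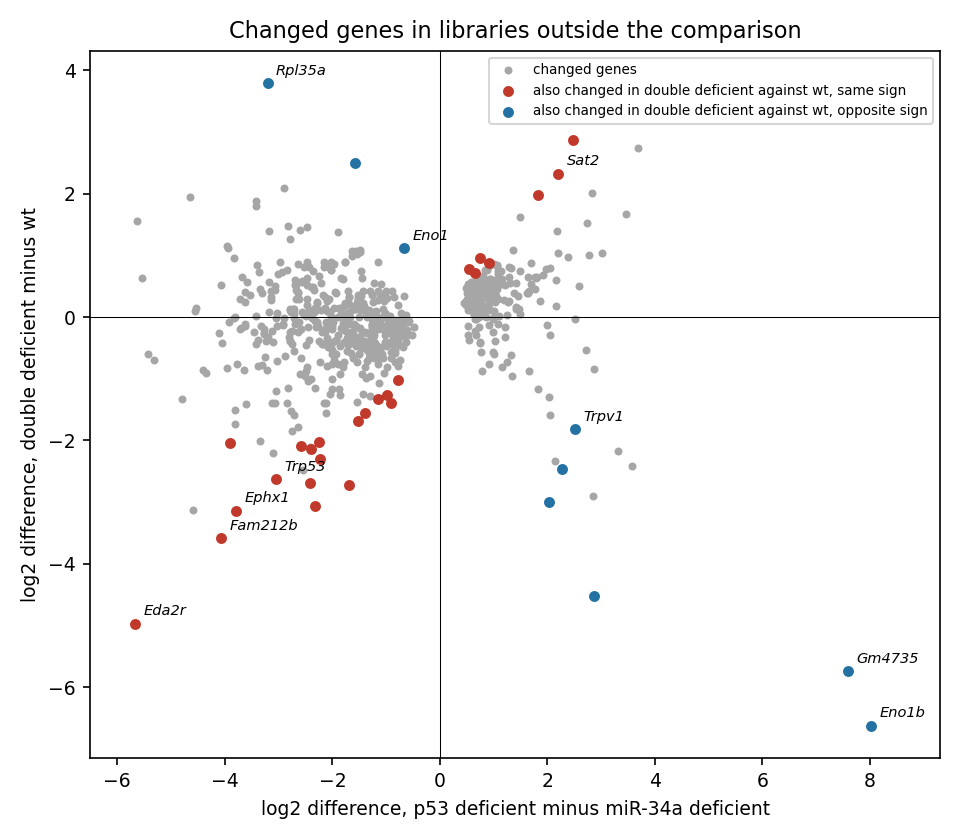
Log2 difference of double deficient minus wt tumours (y axis) against p53 deficient minus miR-34a deficient tumours (x axis) for the 722 changed genes, which rest on separate libraries. Red points, Trp53 and Eda2r among them, changed in both with the same sign, and blue points, Eno1b and Rpl35a among them, with the opposite sign.

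Chromosome 11, which carries Trp53, held many of the genes that rose; this was looked at after the values were seen and is a description. It held 79 of the 241 higher genes with a position, 32.8%, and 8.07% of all genes tested with one. Of its genes, 4.70% rose and 1.67% fell, and each of the other autosomes and the X chromosome had at most 1.43% higher. Its 778 genes that averaged 500 or more gave a median log2 difference of 0.28, and 73.7% of them lay above 0. Over all 1680 of its genes tested, at any level, the median was 0.13. After Trp53 on the chromosome 65 of 1028 genes tested rose, and the 500 of them that averaged 500 or more had a median of 0.34. Before it 14 of 651 rose, and the 277 that averaged 500 or more had a median of 0.21.

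The libraries did not share this evenly. Against each gene's median over the 12 libraries, the genes of that level after Trp53 lay at a median of 0.12, 0.41 and 0.04 in p53 deficient tumours and -0.07, -0.19 and 0.00 in miR-34a deficient tumours. Those before Trp53 lay at 0.14, 0.00 and 0.09 in p53 deficient tumours and -0.05, -0.16 and 0.01 in miR-34a deficient tumours. The p53 deficient 2 library was thus high after Trp53 and at the median before it. Without that library 18 of 51 higher genes with a position lay on chromosome 11, and the median of the chromosome's genes of that level was 0.22. DNA copy number is not analysed here, and its part in the result was not tested.

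Other genes on chromosome 11 that rose, named after their values were seen, were of general cell functions. Galk1 had values of 463, 842 and 724 in p53 deficient tumours and 206, 190 and 206 in miR-34a deficient tumours. Galk1, galactokinase, rose by 1.70 ± 0.23 (adjusted p = 0.0087). Psmd12 had values of 5132, 6215 and 5850 in p53 deficient tumours and 3381, 3219 and 3406 in miR-34a deficient tumours. Psmd12, a subunit of the proteasome lid, rose by 0.78 ± 0.11 (adjusted p = 0.0103), and Psmd11, another subunit, by 0.81 ± 0.13 (adjusted p = 0.0196). Alyref, an mRNA export factor, rose by 0.84 ± 0.14 (adjusted p = 0.0196). All 4 changed in all 3 fits, and their groups did not overlap.

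**Figure D5:**
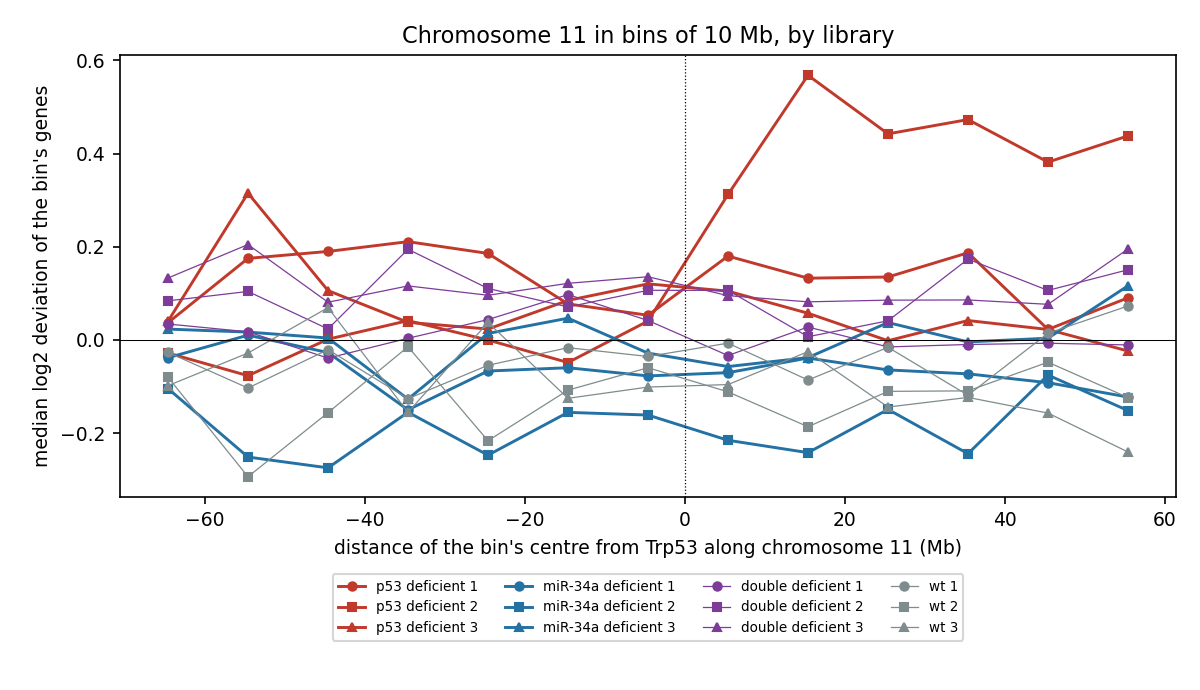
Median deviation of the genes in each 10 Mb bin of chromosome 11 from their 12-library median (log2, y axis) against the bin's distance from Trp53 (Mb, x axis), 1 line per library. The p53 deficient 2 library lies at 0.31 to 0.57 in the bins after Trp53, above the other 11 libraries.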

How the data were processed

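RNA of 12 AOM-induced colon tumours was sequenced, 3 per genotype. The authors deposited 1 table of normalized scores per gene, rounded to whole numbers; the alignment, counting and normalization were not given in the sources used here. Per the submitters' processing notes, the build was mm10. Sums of such scores are not read depths, so no counting interval is given and no count model was used. Scores were taken as log2(value + 1) for genes with a mean of at least 1 over the 12 libraries, and limma 3.58.1 in R 4.3.3 was fitted, with a trend of the spread on the mean level, to all 4 groups with the Benjamini-Hochberg adjustment. Because the table holds 7 of 8 directions of spread, the missing direction was also carried as a covariate, and the fit was repeated without the double deficient libraries. Data for this comparison were simulated (21322 genes, 200 changed, 10 simulations) with 1 direction of spread removed. Of changes of 4 on the log2 scale, 92.12% were recovered, with a false share of 10.779%. When the covariate was used, 89.85% were recovered, with a false share of 3.968%. Of changes of 2, 68.81% were recovered, and 61.64% with the covariate. Of changes of 1, 30.60% were recovered, and 24.48% with the covariate.

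The members and gene lists were chosen with earlier results of these data known. Named are fixed genes, the 15 largest changes per direction at a mean of at least 100 without overlap, 3 members of each list with the smallest p, and changed genes within 5 Mb of Trp53 or Mir34a; other names were added after their values were seen, and some genes that the rule names are not reported here. Samples were not treated as paired by replicate number: the deviations of same-numbered libraries of the 2 groups correlated at 0.07, 0.00 and -0.07. The level of the Y-linked genes rose with the replicate number in every group, so these correlations cannot exclude pairing. Alternatives numbered 30, of which 2 were added after seeing the data. Gene positions and 3′ untranslated regions are from GENCODE, and promoters and microRNAs from RefSeq, both on GRCm38.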

Additional observations from a re-analysis of the deposited data

How the results depend on the processing

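Scaling moved the median of all genes to -0.02 with median-of-ratios, -0.07 with the upper quartile and 0.04 with quantile normalization, against -0.10 as deposited, and the share of changed genes that were higher to 45.7%, 37.4% and 46.3%, against 33.5% (43.9% at a mean of at least 100). The 722 changed genes became 37 with only the 6 libraries, 353 with no trend, 366 without p53 deficient 1 and miR-34a deficient 1, which share a run code, 27 when Y-linked levels were a covariate, 147 with the direction of least spread as a covariate, 260 with no double deficient libraries and 69 with neither p53 deficient 2 nor miR-34a deficient 1. Leaving out 1 library gave 41 (without miR-34a deficient 3) to 1267 (without p53 deficient 1), with 108 and 152 without miR-34a deficient 1 and 2, 191 and 90 without p53 deficient 2 and 3, and 218 without double deficient 3. The 12 p53 targets became 6, 3 and 4 with the 6 libraries, the Y-linked covariate and neither p53 deficient 2 nor miR-34a deficient 1, and 4 to 16 as single libraries were left out. The causes were not tested. The replicate block gave 636 genes and 11 p53 targets; replicate numbers come from the labels and 5 of 12 libraries were closest to their own number.

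Of 3619 pairs of a named gene and an alternative, 2668 kept direction and call, 937 lost the call, 8 gained it and 6 changed sign. Cdk4 reversed to 0.020 with neither p53 deficient 2 nor miR-34a deficient 1, Cdx2 to -0.23 there (-0.16 to 0.39 as single libraries were left out), and Gdf15 to 0.15 without the pair that shares a run code (-1.47 to 0.29 as single libraries were left out). With 3 libraries per group and unknown depth, a gene that misses the threshold is not shown to be alike in the 2 groups.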

Other observations

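Other genes were named after their values were seen, and they are given as values with no test over the group. Wnt6, a Wnt ligand, had values of 476, 247 and 1483 in p53 deficient tumours and 4251, 4546 and 8955 in miR-34a deficient tumours, a log2 difference of -3.32 ± 0.58. The ligand Wnt10a differed by -3.12 ± 0.52, the ligand Wnt4 by -2.42 ± 0.51 and the receptor Fzd10 by -3.28 ± 0.77. The posterior Hox levels set p53 deficient 2 apart. These differences include that library, and the differences without it are not given here.

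Asns, asparagine synthetase, was at 2346, 6326 and 2823 in p53 deficient tumours and 1107, 1157 and 1689 in miR-34a deficient tumours, a log2 difference of 1.42 ± 0.32. Shmt2, the serine hydroxymethyltransferase of mitochondria, differed by 1.07 ± 0.23.

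St8sia2, which builds polysialic acid, was at 134, 90 and 70 in p53 deficient tumours, 1265, 1035 and 2225 in miR-34a deficient tumours, 83, 63 and 60 in double deficient tumours and 228, 472 and 210 in wt tumours. The groups of the 2 single deletions did not overlap, and the difference between them was -3.90 ± 0.38. Sbspon, a secreted somatomedin B protein, differed by -3.18 ± 0.27, with 338, 163 and 237 in p53 deficient tumours and 1889, 1744 and 3005 in miR-34a deficient tumours. Mt3, a metallothionein, differed by -3.93 ± 0.57.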
